A study of Mus musculus with 6 samples.

Results

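The genes described here are the 6 protein-coding genes Ndn, Magel2, Mkrn3, Snrpn, Ube3a and Atp10a, taken by symbol from a table of 32531 gene features. They lie in or beside the imprinted domain of mouse chromosome 7 whose human counterpart is affected in Prader-Willi and Angelman syndromes. All 6 were found, and all 6 passed the filter on low counts. The libraries come from the hypothalamus of adult, untreated control mice of the line Lhx5-TRAP DT154, which carries an EGFP-Rpl10a fusion under Lhx5, so that ribosomes of Lhx5-expressing cells bear a tag. Both kinds of RNA were set against each other. The first came with the tagged ribosomes through an antibody to EGFP (immunopurified, IP, 3 libraries), and the other was left unbound (3 libraries, which their titles call input, a conflict the labels do not settle). The labels give neither an exact age, the sex, nor whether a library stands for 1 animal or a pool, and they name 1 transgenic line. They do not say that replicates came from separate animals, so the p-values measure the spread between these samples, which may be technical.

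In an imprinted domain, the copy from one parent is silenced. Ndn, Magel2, Mkrn3 and the Snurf-Snrpn transcription unit are read from the paternal copy, while neurons read Ube3a from the maternal copy, where the long noncoding transcript Snhg14, which runs antisense to Ube3a, is not made. Necdin, the product of Ndn, and MAGEL2 are MAGE proteins of postmitotic neurons, and MAGEL2 acts in endosomal protein recycling. SmN, the product of Snrpn, is a splicing protein of neurons, UBE3A is a ubiquitin ligase, MKRN3 is a makorin that restrains the onset of puberty, and ATP10A is a lipid flippase. The counts do not separate the parental copies, so nothing here measures imprinting.

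Reads counted in genes totalled 32471045 to 46293837 per IP library and 32926146 to 40768577 per unbound library. Levels are given as CPM (counts of a gene per 1e6 counts of its library) after TMM scaling, which sets library sizes so that most genes match between libraries. Lhx5 itself ran from 56.7 to 70.5 CPM in IP libraries, against 1.86 to 6.28 CPM in unbound libraries. Unbound replicate 3 stood apart: the 14 hypothalamic peptide genes listed summed to 132 CPM there against 321 and 446 CPM in the other unbound libraries, with Avp and Oxt at 0.072 CPM each and Hcrt at 0. In the same library 16 midbrain and hindbrain genes summed to 264 CPM against 25.4 and 36.1 CPM. Other regions did not all go that way: 14 striatal, cortical and thalamic genes summed to 1090 CPM there against 1897 and 1768 CPM, and 7 choroid plexus genes to 75.9 CPM against 2074 and 2267 CPM. IP replicate 3 was also the lowest IP library for the peptide genes (226 CPM against 435 and 390 CPM). So it was for the choroid plexus genes (65.8 CPM against 141 and 251 CPM). Its midbrain and hindbrain sum was not raised (11.4 CPM against 15.9 and 14.7 CPM). Values without the third pair of libraries are given for the 6 genes and for Snurf, Snhg14 and Ipw.

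Of the 6 genes, Ndn and Magel2 were higher in IP than in unbound RNA by 3.62-fold and 3.71-fold, Atp10a was lower by 2.17-fold, and Ube3a, Snrpn and Mkrn3 did not pass the test (edgeR's quasi-likelihood test on all 16991 genes that passed the filter, with Benjamini-Hochberg adjustment at 0.05). Across all genes tested 21.1% were called higher and 23.2% lower. The count of 2 higher and 1 lower among 6 is to be read against those shares. The median log2 fold change of the 6 was -0.12, beside -0.01 for all genes tested. In these fractions of bulk RNA, the number of cells of a type, RNA per cell and the share of RNA on ribosomes cannot be told apart.

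**Figure D1:**
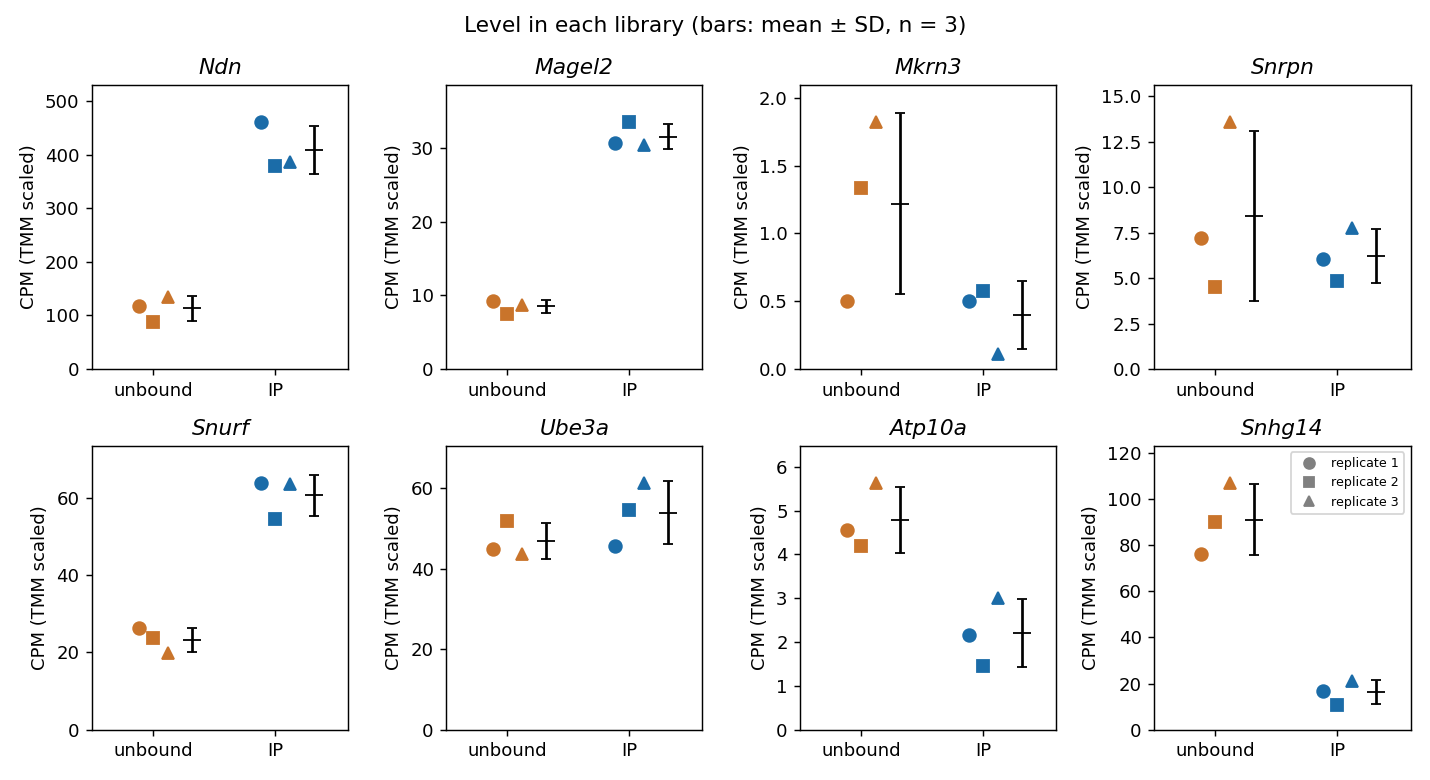
Level of each of the 6 genes, and of their overlapping neighbours Snurf and Snhg14, in every library (vertical axis: CPM after TMM scaling, each panel with its own scale from 0; points: libraries, marked by replicate; bars: mean ± SD, n = 3). IP and unbound libraries do not overlap for Ndn, Magel2, Snurf, Atp10a and Snhg14, and overlap for Mkrn3, Snrpn and Ube3a.

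Ndn stood at 461, 379 and 386 CPM in IP replicates 1 to 3 and at 118, 86.8 and 134 CPM in unbound replicates 1 to 3. The groups did not overlap: the lowest IP value exceeded the highest unbound value. The IP mean was 409 ± 45.3 CPM and the unbound mean 113 ± 23.9 CPM (SD, n = 3 each), a log2 fold change of 1.86 ± 0.19 (SE; adjusted p = 0.000214, edgeR). Its log2 fold change exceeded that of 98.8% of the genes tested.

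Magel2 stood at 30.8, 33.6 and 30.5 CPM in IP and at 9.30, 7.53 and 8.70 CPM in unbound RNA. The groups were again fully apart, with little spread inside either. The IP mean was 31.6 ± 1.73 CPM and the unbound mean 8.51 ± 0.90 CPM (SD, n = 3 each), a log2 fold change of 1.89 ± 0.16 (SE; adjusted p = 0.000115, edgeR). Groups without overlap and with IP above were found for 27.1% of all genes tested, and with IP below for 28.7%.

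Both genes are single-exon genes on the plus strand (GENCODE M21, GRCm38): Ndn at chr7:62346569-62350262 and Magel2 at chr7:62377010-62381640. No other annotated exon overlaps either of them. The number of Magel2 reads per Ndn read, which needs no scaling, was 0.067 to 0.089 in IP and 0.065 to 0.087 in unbound libraries. The ranges overlapped. A two-sided exact permutation test gave p = 0.80. It cannot decide whether the ratio differs, because 0.10 is the smallest p that 3 against 3 allows and no difference could have passed. The ratio was also chosen after values were seen. Both genes kept their call in all 20 alternative fits, including the one without the third pair, which gave 2.02 for Ndn and 1.92 for Magel2.

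The sequences before their transcription starts are shown because these neighbours moved together by similar amounts. Each is the 250 bases upstream of the start in RefSeq (GRCm38.p6), 5′ to 3′ on the plus strand, for Ndn chr7:62348027-62348276 and for Magel2 chr7:62376729-62376978. Capitals mark matches on either strand to 5 short motifs: GGGCGG (the Sp1 GC box), CGCATGCG (the centre of the NRF1 motif), GATGGCG (YY1), CCAAT and TATAAA.
Ndn: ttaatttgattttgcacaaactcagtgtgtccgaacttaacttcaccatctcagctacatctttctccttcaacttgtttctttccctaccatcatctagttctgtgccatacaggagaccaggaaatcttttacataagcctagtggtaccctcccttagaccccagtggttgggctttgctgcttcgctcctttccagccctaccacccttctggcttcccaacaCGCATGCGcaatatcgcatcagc
Magel2: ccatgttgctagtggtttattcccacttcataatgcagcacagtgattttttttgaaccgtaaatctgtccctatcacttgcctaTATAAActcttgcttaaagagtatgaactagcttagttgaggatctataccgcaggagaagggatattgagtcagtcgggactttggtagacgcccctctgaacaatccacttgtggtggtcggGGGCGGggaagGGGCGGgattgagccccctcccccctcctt
RefSeq starts Ndn further downstream than GENCODE M21, whose Ndn exon contains the whole Ndn window. The Ndn window held CGCATGCG once, beginning 23 bases before the start, and none of the other motifs. The Magel2 window held GGGCGG 2 times, beginning 41 and 30 bases before the start, and TATAAA once, 165 bases before it. Among 32851 such windows of all genes, CGCATGCG was in 1.55%, GGGCGG in 32.7%, GATGGCG in 2.18%, CCAAT in 33.8% and TATAAA in 12.4%. The pair of windows therefore had none of these motifs in common. CpG dinucleotides numbered 5 for Ndn and 7 for Magel2, near the median of 6 over all windows. A match is a description of letters and not evidence of binding.

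Mkrn3, the third gene of this group, is also intronless and lies at chr7:62417593-62420139 on the minus strand, with no overlapping exon. It was close to the limit of detection, with 21, 18 and 5 reads in IP and 20, 46 and 76 reads in unbound replicates 1 to 3. In CPM these are 0.50, 0.58 and 0.11 against 0.50, 1.34 and 1.82, so that replicate 1 was level in both groups and the gap was widest in replicate 3. The log2 fold change of -1.64 ± 0.72 (SE) did not pass (adjusted p = 0.0931, edgeR), and without the third pair it was -0.78 (adjusted p = 0.352, edgeR). Its relatives Mkrn1 and Mkrn2, with log2 fold changes of 0.12 and 0.18, did not pass either, and under the pan-neuronal scaling described below both were called lower. Peg12, another paternally expressed gene beside it, had 24 reads or fewer in every library and was not tested.

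**Figure D2:**
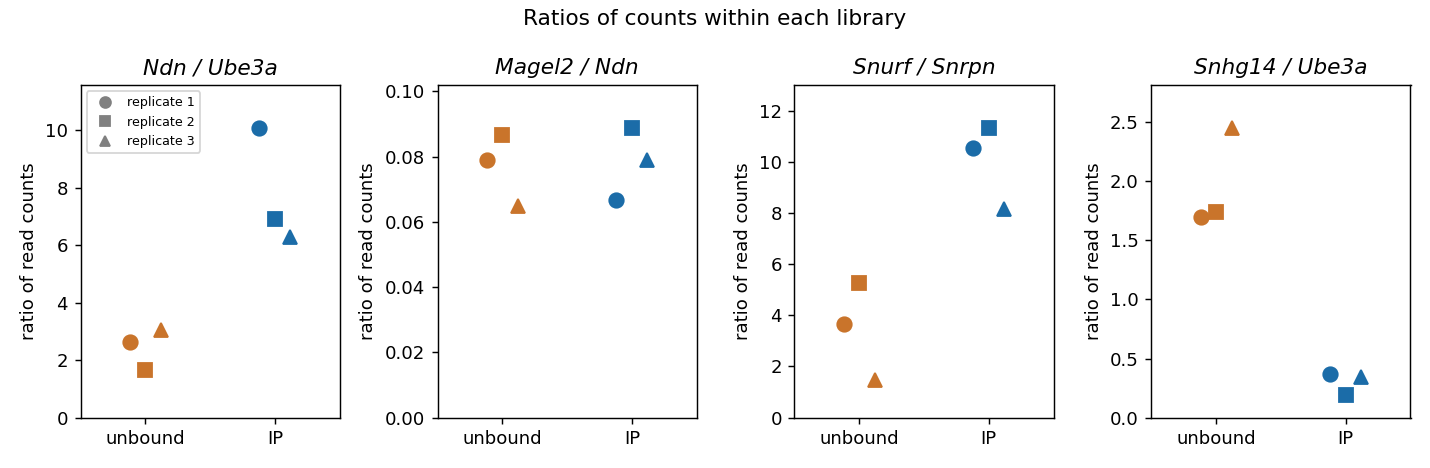
Ratios of read counts between 2 genes of the domain within each library (vertical axis: ratio, from 0; points: libraries marked by replicate). The ratios were chosen after values were seen. Ndn/Ube3a and Snurf/Snrpn are higher in every IP than in every unbound library, Snhg14/Ube3a is lower in every IP library, and Magel2/Ndn overlaps between the groups.

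Snrpn stood at 6.06, 4.82 and 7.78 CPM in IP and at 7.19, 4.50 and 13.6 CPM in unbound RNA. The groups overlapped, with unbound replicate 3 above the rest. Its log2 difference of -0.44 ± 0.38 (SE) did not pass (adjusted p = 0.381, edgeR), and without unbound replicate 3 it was 0.089 (adjusted p = 0.823, edgeR). Without the third pair it was -0.12. This value covers only reads that could be given to Snrpn alone, because Snrpn shares its transcript with Snurf, a short reading frame at the head of the same RNA.

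Snurf, counted as a feature of its own, stood at 63.9, 54.5 and 63.5 CPM in IP and at 26.2, 23.7 and 19.9 CPM in unbound RNA. The groups did not overlap, and the log2 fold change of 1.38 ± 0.15 (SE) passed (adjusted p = 0.000322, edgeR). With the counts of Snurf and Snrpn added into 1 feature, an alternative chosen after the data were seen, the value was 1.08 ± 0.14 (SE; adjusted p = 0.000669, edgeR). Without the third pair Snurf was at 1.23. Snrpn reads made up 8.66%, 8.13% and 10.9% of the summed reads in IP replicates 1 to 3 (95% exact binomial intervals 7.67 to 9.74%, 6.92 to 9.47% and 9.85 to 12.03%). In unbound replicates 1 to 3 the shares were 21.5%, 16.0% and 40.6% (intervals 19.4 to 23.8%, 13.7 to 18.5% and 38.0 to 43.2%, which cover counting error only). The share was lower in every IP library than in any unbound library, and the ratio of Snurf to Snrpn reads ran from 8.17 to 11.3 in IP and from 1.47 to 5.25 in unbound RNA (two-sided exact permutation test, p = 0.10, the smallest this design allows). This ratio was also chosen after the values were seen, so its separation is not separate support.

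In RefSeq, Snurf spans chr7:59982495-60005199 and Snrpn chr7:59982495-60450177, both on the minus strand, with the same 3′ end. In GENCODE M21 all 216 exonic bases of Snurf are also exonic in Snrpn and in the predicted gene Gm38393. Reads on shared bases are ambiguous to a counter, and the annotation the authors counted against is not given in the sources used here. Ipw was counted, yet RefSeq holds a gene of that name and GENCODE M21 does not. The exon overlaps and lengths given from GENCODE M21 therefore need not be those of the counting. The share of all reads listed as ambiguous between features was 1.58 to 1.64% in IP and 7.08 to 9.02% in unbound libraries. How much of it falls on this locus was not tested.

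RefSeq gives Snrpn 4 starts: the most downstream start is shared with Snurf, the other 3 belong to Snrpn alone. Their sequences are shown because Snurf and Snrpn differ in their starts. Which bases decided the split of reads between these names was not tested. The first sequence is the 250 bases before the shared start (chr7:60005200-60005449, minus strand, 5′ to 3′), which held none of the 5 motifs and 3 CpG dinucleotides.
Shared Snurf and Snrpn start: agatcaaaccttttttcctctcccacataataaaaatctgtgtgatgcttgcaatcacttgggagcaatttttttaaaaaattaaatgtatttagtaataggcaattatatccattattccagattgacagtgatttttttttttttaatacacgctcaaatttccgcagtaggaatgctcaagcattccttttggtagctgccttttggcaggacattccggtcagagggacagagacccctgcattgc
The others are 60-base stretches from the windows of the 3 upstream starts, 42.8, 135.0 and 445.0 kb before the shared start, at chr7:60048016-60048075, chr7:60140270-60140329 and chr7:60450207-60450266 on the minus strand. The stretches were chosen after the windows were seen, and capitals mark CGCATGCG.
Snrpn start 42.8 kb upstream: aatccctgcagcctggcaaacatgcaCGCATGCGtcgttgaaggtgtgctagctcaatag
Snrpn start 135.0 kb upstream: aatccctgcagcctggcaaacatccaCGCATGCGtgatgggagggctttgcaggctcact
Snrpn start 445.0 kb upstream: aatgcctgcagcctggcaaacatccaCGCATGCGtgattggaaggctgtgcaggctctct
All 3 upstream windows held CGCATGCG, at 71, 78 and 63 bases before the start, as the Ndn window did at 23 bases, against 1.55% of all windows. The 3 windows belong to 1 gene and are not independent instances.

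The noncoding transcripts Snhg14, Ipw and Snord64 were lower in IP, and B230209E15Rik was higher. IP RNA is what came with tagged ribosomes, so a noncoding transcript's binding to ribosomes and its level in Lhx5 cells cannot be told apart here. Snhg14, the antisense host transcript, stood at 16.8, 10.7 and 21.3 CPM in IP and at 76.2, 90.2 and 107 CPM in unbound RNA. The groups were far apart (log2 fold change -2.48 ± 0.26, SE; adjusted p = 0.000263, edgeR). Ipw, another noncoding transcript of the domain, stood at 2.99, 2.80 and 2.64 CPM against 8.32, 11.7 and 19.8 CPM (-2.24 ± 0.32, SE; adjusted p = 0.000927, edgeR). Reads of Ipw per read of Snhg14 were 0.12 to 0.26 in IP and 0.11 to 0.18 in unbound libraries, ranges that overlap. Without the third pair Snhg14 was at -2.60 and Ipw at -1.81.

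Snord64, a small nucleolar RNA of the unit, fell too (-1.79; adjusted p = 0.0260, edgeR), at 0.19 to 0.51 CPM in IP, but the call was lost in 6 of 19 alternatives: without IP replicate 1 or 2, without any 1 of the unbound libraries, and with the libraries of sequencing lane 2 (replicates 1 and 3) alone. Snord116 was listed at 0 in all 6 libraries. It is a family of near-identical copies, and reads that aligned to several places were not counted. Such reads made up 43.8 to 45.0% of all reads listed in IP and 31.8 to 32.9% in unbound libraries. The noncoding B230209E15Rik, between Snurf and Ndn, rose from 85.6 to 99.3 CPM in unbound to 156 to 210 CPM in IP RNA (0.95; adjusted p = 0.00146, edgeR), and was not called under pan-neuronal scaling, described below (0.29; adjusted p = 0.164, edgeR). Of the 5 tested members of this list of other domain transcripts, 2 rose and 3 fell, with a median of -1.79. Of all genes tested, 21.1% were called higher and 23.2% lower.

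Ube3a stood at 45.8, 54.7 and 61.4 CPM in IP and at 45.0, 52.0 and 43.8 CPM in unbound RNA. The groups overlapped. The log2 fold change was 0.20 ± 0.15 (SE), and the test did not call it (adjusted p = 0.303, edgeR). Without the third pair it was 0.034. Per Ube3a read there were 6.29 to 10.1 Ndn reads in IP and 1.67 to 3.06 in unbound libraries, without overlap (two-sided exact permutation test, p = 0.10, the smallest this design allows). The ratio was chosen after the values of Ndn and Ube3a were seen, so its separation restates them and is not separate support.

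Ube3a lies at chr7:59228750-59311536 on the plus strand, and 8.7% of its exonic bases in GENCODE M21 are also exonic in Snhg14 on the other strand. Snhg14 spans chr7:59307924-59975759 in GENCODE M21 and chr7:59272737-60450177 in RefSeq, and its 3′ end lies inside Ube3a in both. The strand setting of the counting is not given in the sources used here, so reads of Ube3a and of its antisense transcript cannot be told apart on shared bases. Snhg14 reads per Ube3a read numbered 0.20 to 0.37 in IP and 1.70 to 2.45 in unbound libraries.

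Atp10a, at chr7:58656166-58829420 on the plus strand with no overlapping exon, stood at 2.16, 1.45 and 3.0 CPM in IP. In unbound RNA it stood at 4.56, 4.18 and 5.63 CPM, each above every IP library. The IP mean was 2.20 ± 0.78 CPM and the unbound mean 4.79 ± 0.75 CPM (SD, n = 3 each), and the log2 fold change of -1.12 ± 0.33 (SE) passed (adjusted p = 0.0225, edgeR). The call was lost without IP replicate 1 (-1.09, adjusted p = 0.0701, edgeR), without IP replicate 2 (-0.88, adjusted p = 0.0673, edgeR), without unbound replicate 1 (-1.10, adjusted p = 0.0595, edgeR) and with the libraries of sequencing lane 2 alone, replicates 1 and 3 (-0.98, adjusted p = 0.111, edgeR). Without the third pair it was -1.28 and called (adjusted p = 0.0105, edgeR). Markers of glia and vessels moved the same way: 14 of 15 astrocyte, 15 of 15 oligodendrocyte, 14 of 15 microglia and 9 of 13 vascular genes fell. Of all genes tested, 23.2% were called lower. Their summed levels were 527 to 813 against 2126 to 2356 CPM for astrocyte genes and 6.09 to 10.9 against 34.1 to 76.7 CPM for vascular genes, with no listed gene at 0 throughout. Oligodendrocyte genes summed to 453 to 720 against 4223 to 8001 CPM and microglia genes to 13.2 to 33.8 against 109 to 175 CPM. The part of these cells in the Atp10a value was not tested.

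**Figure D3:**
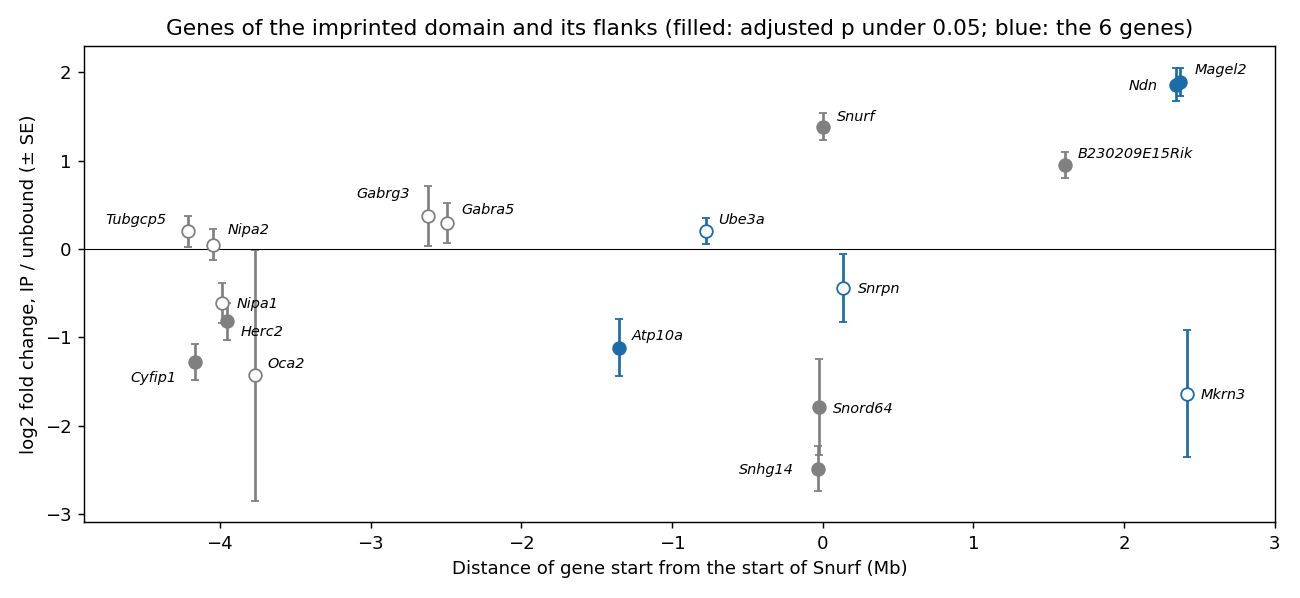
Log2 fold change (IP over unbound, ± SE) against the distance of each gene's annotated start from the start of Snurf in Mb (blue: the 6 genes; grey: other tested genes of the domain and its flanks with an annotated position; filled: adjusted p under 0.05). Ndn and Magel2 share 1 place near the top right, Mkrn3 next to them sits at -1.64, and Snurf at 1.38 stands above Snhg14 at -2.48.

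The genes that flank the domain beyond Atp10a showed 0 rises and 2 falls among 8 tested, with a median of -0.28, where 23.2% of all genes tested were called lower: the flanks do not stand out by that share. Cyfip1, which links actin assembly and translation control, fell by 1.28 (adjusted p = 0.00158, edgeR), and Herc2, a large HECT-domain ligase, fell by 0.82 (adjusted p = 0.0123, edgeR), a call lost without IP replicate 1, without IP replicate 2 and with lane 2 alone. The GABA-A receptor genes Gabra5 (0.30) and Gabrg3 (0.37) did not pass. Each was lowest, among the 3 unbound libraries, in replicate 3, where Gabra5 stood at 49.5 CPM against 93.4 and 85.5 CPM.

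Set per kilobase of annotated exon, to compare levels between genes, the order in IP was Ndn, Magel2, Snrpn, Ube3a, Atp10a and Mkrn3. The mean levels in that order were 111, 6.83, 2.88, 2.62, 0.39 and 0.16 CPM per kb. In unbound RNA Ndn also led, at 30.5 CPM per kb, followed by Snrpn at 3.90, Ube3a at 2.27 and Magel2 at 1.84, then Atp10a at 0.86 and Mkrn3 at 0.48. Snrpn and Ube3a overlapped in both groups (2.23 to 3.6 and 2.22 to 2.98 CPM per kb in IP, 2.09 to 6.30 and 2.12 to 2.52 CPM per kb in unbound RNA), so their order is not settled. Lengths limit this scale: Snrpn's exons include the bases shared with Snurf, and Ndn's exon is 3694 bases in GENCODE M21 but 1652 in RefSeq. Reads limit it too, since Snrpn's value leaves out the reads counted as Snurf. Snrpn reads were 8.13 to 10.9% of the summed Snurf and Snrpn reads in IP and 16.0 to 40.6% in unbound libraries. Snrpn's place in either order is therefore not that of the shared transcript.

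The scaling of the libraries decided part of the picture. With median-ratio size factors 19.7% of genes were called higher and 24% lower, with library size alone 16.8% and 25.5%, and with replicate blocks 23.3% and 23.6%. Under each of these Ndn and Magel2 were called higher, Atp10a lower, and the other 3 not. Scaling on the summed counts of 20 pan-neuronal genes gave 3.17% higher and 49.4% lower and put the median of all genes at -0.66, against -0.01. Under it Ndn (1.21, adjusted p = 0.00112, edgeR) and Magel2 (1.23, adjusted p = 0.000556, edgeR) remained higher. The other 4 were called lower: Ube3a at -0.46 (adjusted p = 0.0290, edgeR), Snrpn at -1.08 (adjusted p = 0.0415, edgeR), Atp10a at -1.77 and Mkrn3 at -2.25 (adjusted p = 0.00241 and 0.0281, edgeR). Snurf was at 0.72 and still called higher (adjusted p = 0.00924, edgeR). With TMM scaling, 13 of the 20 pan-neuronal genes rose and 1 fell (median 0.60), beside 21.1% and 23.2% of all genes tested. Their summed level was 26291 to 27745 CPM in IP libraries against 16084 to 18306 CPM in the others. Snap25 (mean 12130 CPM in IP, log2 fold change 0.55) and Vsnl1 (5395 CPM, 1.33) were the largest terms of that sum. They therefore weigh most in the pan-neuronal scaling. The part of neuronal content in the rise of Ndn and Magel2 was not tested beyond this scaling.

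**Figure D4:**
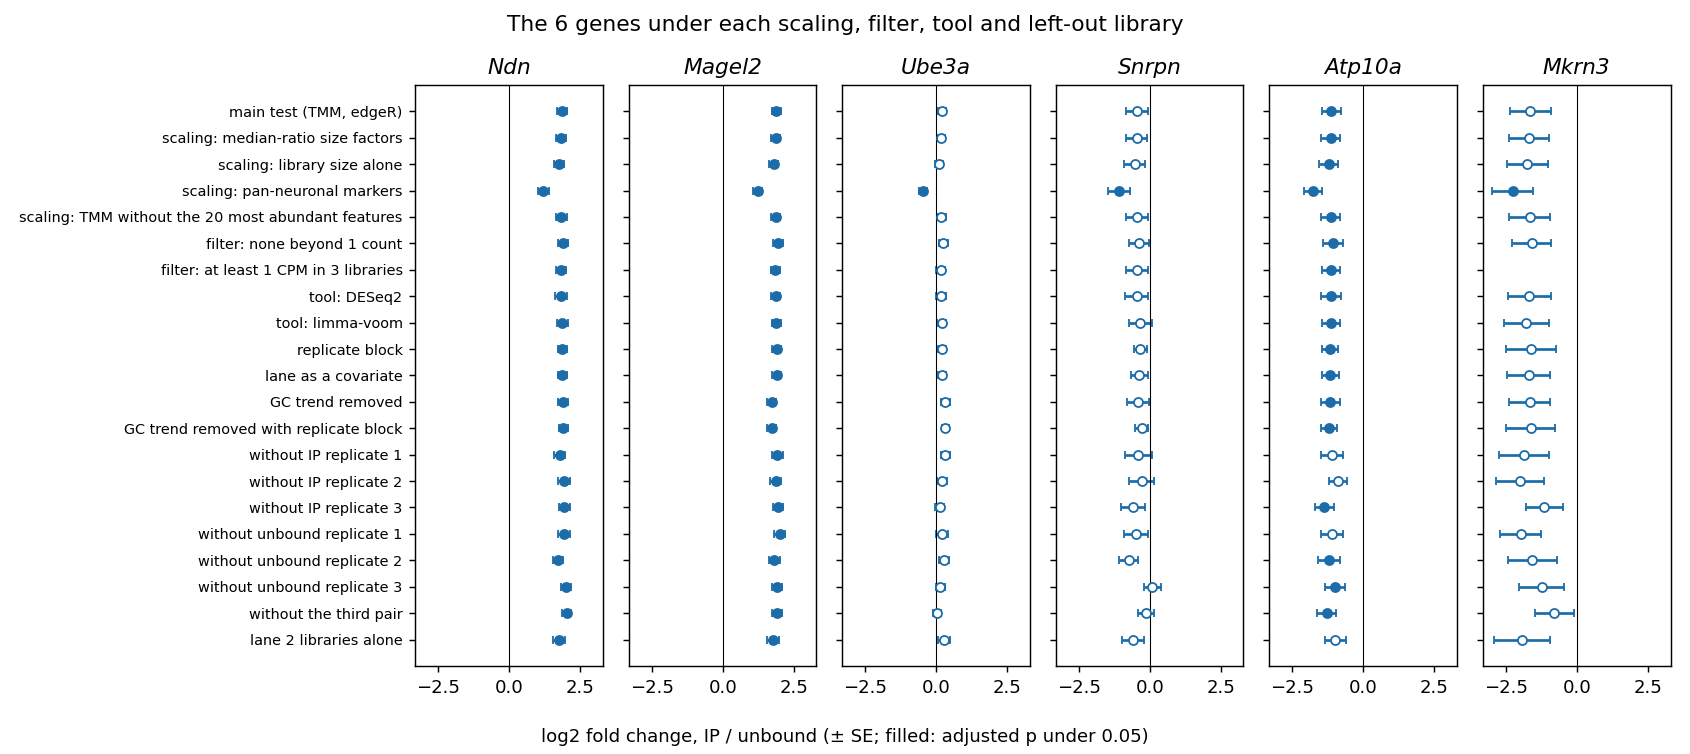
Log2 fold change (IP over unbound, ± SE) of the 6 genes in the main test and in 20 alternatives (rows; filled: adjusted p under 0.05; 1 panel a gene). Ndn and Magel2 stay between 1.21 and 2.02 in every row, and the row scaled on pan-neuronal genes moves all 6 to the left; Mkrn3 has no value under the filter of 1 CPM in 3 libraries.

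Relatives and partners of the 6 proteins are described from lists. Their counts are to be read against all genes tested, of which 21.1% were called higher and 23.2% lower with TMM scaling, and 3.17% and 49.4% with pan-neuronal scaling. All 6 tested MAGE genes besides Ndn and Magel2 rose (median 0.94), led by Maged1 (0.98, from 455 to 460 CPM in unbound to 826 to 1015 CPM in IP RNA), Magee2 (0.94) and Magee1 (1.04). Under pan-neuronal scaling 1 of the 6 was called higher and the median was 0.29. MAGEL2 works with the ligase TRIM27 and the retromer and WASH complexes at endosomes. Of 14 such genes 6 rose and 0 fell (median 0.30), among them Vps29 (0.82), Capzb (0.80) and Trim27 (0.63), while pan-neuronal scaling gave 0 rises and 6 falls.

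Of 10 Sm and U1 protein genes, the splicing partners of SmN, 7 rose and 1 fell (median 0.84). The shares of all genes tested were 21.1% and 23.2%, and 3.17% and 49.4% with pan-neuronal scaling. Snrpd2 (1.11), Snrpd1 (1.13) and Snrpg (1.30) rose most clearly, Snrnp70 fell by 0.49, and pan-neuronal scaling gave 3 rises and 1 fall. Snrpb, whose product SmB is the close relative that SmN replaces in neurons, rose by 0.49 (adjusted p = 0.0267, edgeR). Snrpn alone was not called (-0.44), and summed with Snurf it was at 1.08.

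Among 24 HECT-domain ligases other than Ube3a, 1 rose and 10 fell (median -0.32). The shares of all genes tested were 21.1% and 23.2%, and 3.17% and 49.4% with pan-neuronal scaling. Hectd2 (-0.94), Wwp1 (-0.68) and Smurf2 (-0.58) fell and Wwp2 rose (0.51), and pan-neuronal scaling gave 0 rises and 22 falls. Of 9 genes for ubiquitin-conjugating enzymes and reported targets of UBE3A, 5 rose and 2 fell (median 0.62): Ube2d2a (0.87), Arhgef15 (0.81) and Ube2l3 (0.72) rose. Aldh1a2 (-3.82) and Arc (-1.40) fell, Arc with groups that overlapped and 19.3 CPM in unbound replicate 3 against 54.6 and 75.0 CPM. Pan-neuronal scaling gave 0 rises and 3 falls in this list.

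Of 13 P4-ATPase flippases and their subunits, the family of ATP10A, 2 rose and 5 fell (median -0.50), beside 21.1% and 23.2% of all genes tested. Atp11b (-1.40), Atp10b (-2.12) and Atp11a (-0.91) fell, as Atp10a did, and the flippases Atp8a2 (0.61) and Atp9a (0.84) rose. Pan-neuronal scaling gave 0 rises and 8 falls, beside 3.17% and 49.4% of all genes tested.

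**Figure D5:**
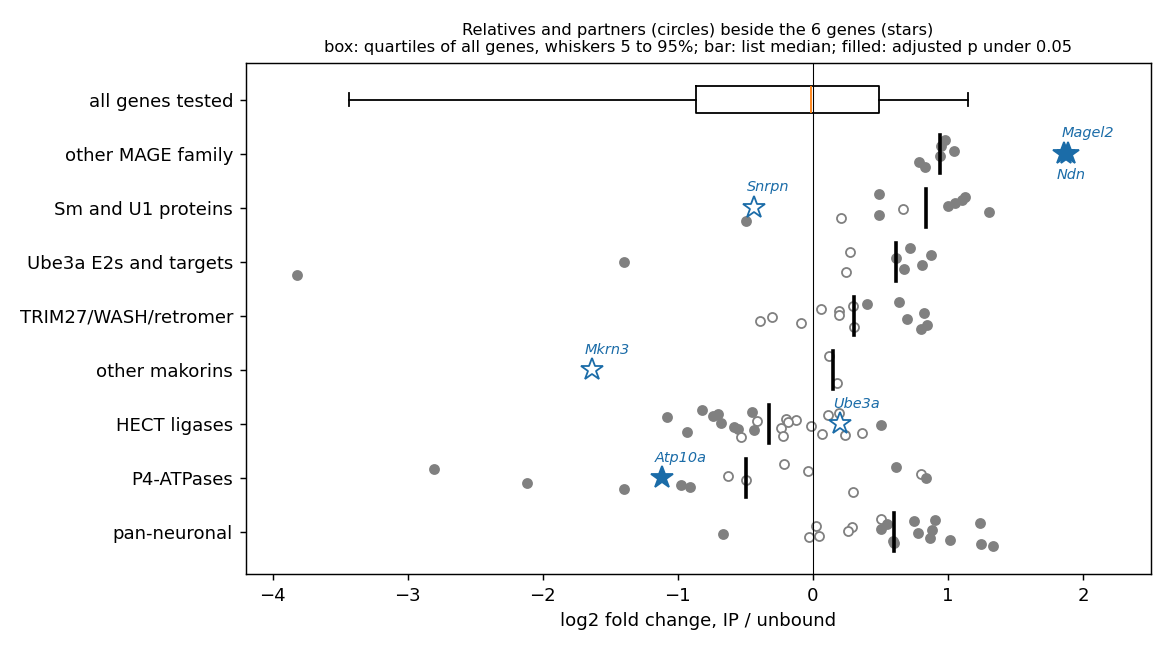
Log2 fold change (IP over unbound) of the 6 genes (stars) beside their relatives and partners (circles), pan-neuronal genes and all genes tested (box: quartiles, whiskers: 5 to 95%; bars: list medians; filled: adjusted p under 0.05). Ndn and Magel2 lie to the right of all 6 other MAGE genes, Snrpn, not called, lies at -0.44 (1.08 when summed with Snurf, not drawn), and Atp10a lies at -1.12 beside a P4-ATPase median of -0.50.

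The genes closest to each of the 6 in their profile over the 6 libraries were found among 10567 or 10568 named genes with a mean of at least 5 CPM. The measure was the root-mean-square difference of log2 levels after each gene was centred on its own mean. Before the log, 0.5 CPM was added to every level, which narrows the profile of Mkrn3, at 0.11 to 1.82 CPM. For Ndn they were Rac3 (0.098), Flywch2 (0.12) and Efcab10 (0.13), and for Magel2 Nr2f2 (0.087), Mdga1 (0.090) and Nrsn2 (0.098). Ube3a was closest to Exosc9 (0.033), Vps26b (0.044) and Med14 (0.046), and Atp10a to Fbxo30 (0.090), Tob2 (0.090) and Krcc1 (0.097). For Snrpn they were Rnd2 (0.16), Rimkla (0.17) and Cyp39a1 (0.18), and for Mkrn3 Fbn1 (0.16), Cdh20 (0.17) and Csmd2 (0.18), less close than for the other 4.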

How the data were processed

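Groups, 3 IP and 3 unbound libraries, follow the labelled sample type. What the authors deposited is an unnormalised count for each gene. The submitters' processing notes name STAR 2.0.0e, HTSeq and the build mm10, without their settings. Only gene rows entered the library sizes and the tests; they held 45.0 to 47.7% of the reads listed. Genes were tested with edgeR 4.0.16 (R 4.3.3): TMM, filterByExpr defaults (minimum count 10, minimum total 15), robust quasi-likelihood fit on group, Benjamini-Hochberg adjustment, threshold 0.05. SE is the log2 fold change over the square root of F. The test was also run on simulated counts. Those had the same dispersion for every gene, no pairing and no outlying library, so that run does not cover such features of these data. Replicates differed by more than counting noise (chi-square per degree of freedom 23.0 to 136).

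Replicate numbers are shared between groups. Deviations of same-numbered libraries from their group means correlated over genes at 0.21, 0.24 and 0.26, each over 0.1, so the numbers were taken as pairs. Libraries of unlike number correlated at -0.24 to 0.073. Centring on group means lowers these values when same-numbered libraries correlate, so they add no separate support. The pairing rests on the same-number correlations and on no label. The main fit and the permutation tests did not use it, and the replicate block did. Lane, 4 for replicate 2 and 2 otherwise, follows the number. DESeq2 1.42.0, limma 3.58.1 (voom) and the other alternatives are in the closing section.

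Positions, exons and GC come from GENCODE M21 (GRCm38, also called mm10), promoter sequences from RefSeq (GRCm38.p6), which matched all 6 genes. The members and lists were chosen with earlier results of these data known. By rule, the text names all 6 genes, domain, flank and makorin genes, up to 3 genes of each other list with the smallest adjusted p and up to 2 called the other way, and the 3 closest profiles. Snrpb, Snap25, Vsnl1, Peg12's count, the ratios within libraries, the summed Snurf and Snrpn feature and the motifs were chosen after values were seen. Some genes are not reported here and were left out of the lists.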

Additional observations from a re-analysis of the deposited data

How the results depend on the processing

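Ndn and Magel2 kept direction and call in all 20 alternatives. Scaling on pan-neuronal genes gave 538 genes higher and 8388 lower (6.03% of calls higher, against 47.6%), 4 of the 6 genes lower, and called Mkrn3 (-2.25), Snrpn (-1.08) and Ube3a (-0.46, reversed). It also reversed Gabra5 (-0.37) and Gabrg3 (-0.31), neither called. The lane 2 libraries alone, 2 a group, gave 1297 higher and 2538 lower (33.8% of calls higher), 0 of the 6 genes lower and Atp10a at -0.98. Leaving out 1 library at a time put Atp10a between -1.37 and -0.88, Snrpn between -0.73 and 0.089 and the count of the 6 genes called lower between 0 and 1. Snrpn summed with Snurf was at 1.08. The replicate block, given the pairing, changed no call of the 6 genes (Ndn was at 1.87). The filter of 1 CPM in 3 libraries gave no value for Mkrn3, and the GC fits none for Ipw, which had no GC value. The cause of these changes was not tested. Of the 6 genes, the lowest counts were those of Mkrn3, with 5 to 76 reads a library, and Atp10a, with 45 to 235.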
